A study of Gallus gallus with 15 samples.

Results

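In the hypothalamus of newly hatched broiler chicks, 250 genes of 24356 had a higher mean level after incubation under white light, and a lower mean level after green light in the last 3 days of incubation, than after incubation in the dark. The members were chosen by these readings and by no pathway. Levels were CPM, counts divided by the library's total on a common scale, taken as log2(CPM + 1) and averaged within each group. A member had a mean count of at least 50 over the 15 libraries, a White mean at least 0.3 above the Control mean and a G3D mean at least 0.3 below it. Of 6564 genes with a mean count of 50 or more, 254 met these limits, and 4 of them (from 5 genes set aside, LEPROT among them) were not counted as members. Scaling the libraries by TMM left 152 genes, of which 149 were among the 250, DESeq2's size factors left 160, and leaving out White replicate 3 left 154. By the same limits, 218 genes were higher in both White and G3D than in Control, 69 were lower in both, and 33 were lower in White and higher in G3D.

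The chicks were Ross 308 broilers, a commercial meat strain, sampled on the day of hatch (DOH). Control eggs were incubated in the dark (4 libraries), White eggs under polychromatic light from start to hatch (4 libraries), Green eggs under green monochromatic illumination (GMI) over the same span (3 libraries), and G3D eggs under GMI for the last 3 days only (4 libraries). RNA came from a single hemisphere of the hypothalamus as whole tissue, the study describes the chicks as male although the G3D titles give no sex, and the trial or hatch of each chick is not given. Bulk MARS-Seq, which reads the 3′ end of polyadenylated transcripts, gave total counts between 3944530 and 9501555 per library. Pairs of libraries of a group differed by more than counting error (chi-square per degree of freedom 11.7 to 27.6 over 21 pairs).

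The hypothalamus holds small groups of neurons that set feeding, body temperature and the release of pituitary hormones, and in birds it also holds photoreceptors that light reaches through the skull. Many of its neurons are inhibitory and release GABA, and their output depends on calcium pumps, second messengers such as cyclic GMP, the recycling of synaptic membrane and the local supply of new protein. Genes for parts of each of these processes were among the members: both subunits of the nitric oxide receptor (GUCY1A3 and GUCY1B3), the calcium pumps ATP2B2 and ATP2A2, the GABA-making enzyme GAD67, the clathrin heavy chain CLTC and the translation factors EIF4G2 and EIF3E. GAD67, for example, had a mean of 117 ± 19.4 CPM in Control (SD, n = 4), 152 ± 41.4 in White (n = 4), 80.6 ± 9.87 in Green (n = 3) and 80.1 ± 30.1 in G3D (n = 4). Other genes of these processes were no members. On the log2 scale CLTB (0.32), AP2M1 (0.35) and EIF3G (0.33) were higher in G3D than in Control. GAD2 was lower in G3D (-0.86) but missed the White limit (0.08). Only 75 members carry a gene symbol and 175 do not. Symbols could be taken only from the study's list of DEGs, in which 92 members appear. That list was chosen on these same samples, so a count of named genes in a pathway is no independent evidence of the pathway. It holds 568 genes with a symbol, of which the 75 are members. The lists of genes by role used below were drawn up with earlier results known and hold 63 of the 75. High shares of members in them follow in part from how they were made. A listed gene that the study's list does not name may be in the count table, but could not be looked up.

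The difference from Control that chose the members had a median of 0.42 on the log2 scale in White (quartiles 0.36 and 0.55, highest 2.11) and -0.61 in G3D (quartiles -0.84 and -0.42, lowest -2.75). Over all 6564 genes the medians were 0.08 and 0.04. These values describe the choice and were not tested. On the smaller of the 2 differences, the members nearest the limit had 0.30 (ENSGALG00000009752), 0.301 and 0.302 (POMP, a proteasome assembly factor), and the nearest genes outside had 0.299, 0.298 and 0.297. Among members with a symbol the smaller difference was largest in SACM1L (0.97), STAU1 (0.76), PDP1 (0.73), KLHL7 (0.70), SBNO1 (0.69) and DCAF13 (0.67).

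Eggs kept under green light throughout were not read by these limits, apart from the shared Control libraries and the mean count. The Green mean was below the Control mean for 236 members (94.4%), against 47.3% of all 6564 genes. For 204 members (81.6%) it lay between the G3D and Control means, for 32 (12.8%) below the G3D mean, for 14 (5.6%) between Control and White, and for 0 above White. The median Green minus Control difference was -0.39 (quartiles -0.59 and -0.20, range -2.01 to 0.25), beside 0.01 over all 6564 genes. Green was lower than Control by 0.3 or more for 158 members (63.2%, against 13.2% of all genes) and higher by 0.3 or more for 0 (11.2% of all genes). The other 92 members were within 0.3 of Control. The shares over all genes are a description, since Green is set against the same Control libraries that chose the members, and the share for genes chosen in this way without any change was not computed.

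**Figure D1:**
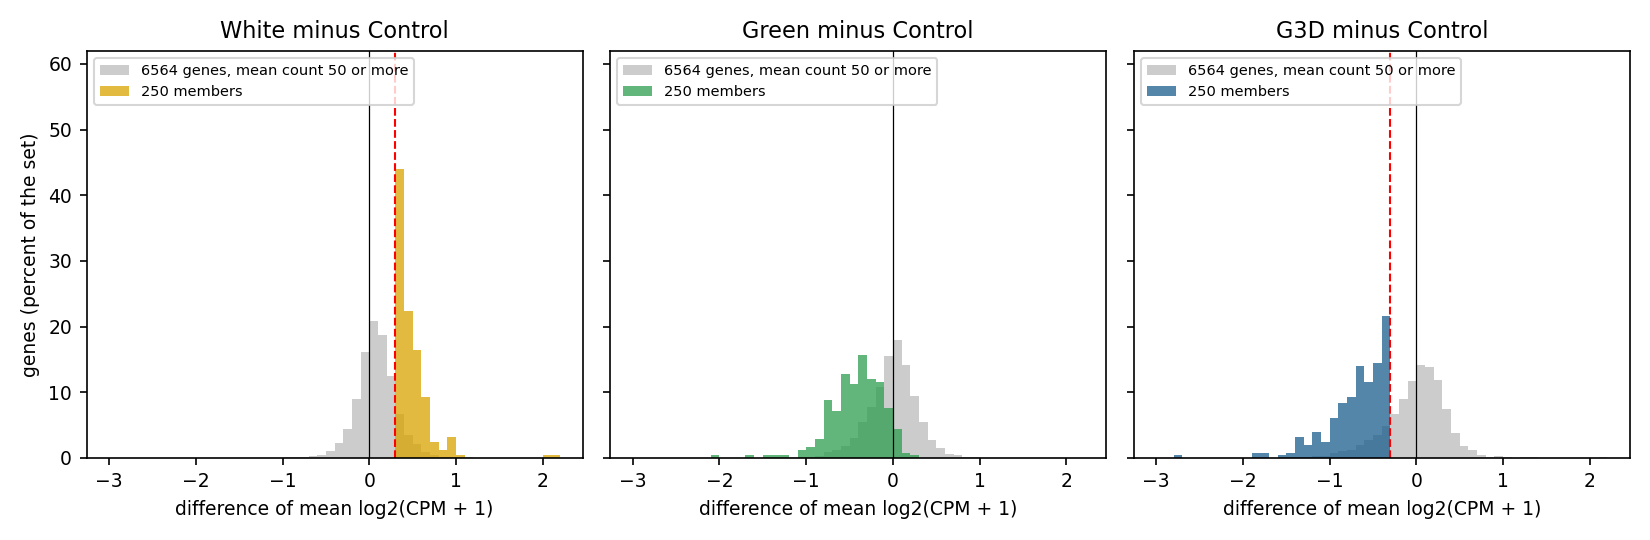
Distribution of the difference of group means on the log2(CPM + 1) scale, from left to right for White, Green and G3D minus Control, as percent of the genes of each set; values beyond the axis are drawn in the outermost bar. Grey bars are the 6564 genes with a mean count of 50 or more, coloured bars the 250 members, and dashed red lines the limits of 0.3 and -0.3 that chose the members. Green, which had no limit, has a member median of -0.39.

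No single member passed the edgeR test between Green and Control. All 250 passed edgeR's expression filter, and edgeR's quasi-likelihood test over the 10475 genes tested called 0 genes at an adjusted p under 0.05 (background 0%). Its smallest adjusted p was 0.202 over all genes and 0.271 among the members, for ENSGALG00000027891, a member without a symbol. DESeq2 called 13 genes higher and 9 lower, the same member among them, and limma-voom called 0. In edgeR's fit, 234 members had a log2 fold change below 0 and 16 above it, with a median of -0.40, beside -0.01 and 51.6% lower over all genes tested. At an unadjusted p under 0.05, 49 members (19.6%) were lower, where 3.58% of all genes tested were lower, also 3.58% of those with a mean count of 50 or more. At the same level 0 members were higher, where 3.58% of all genes tested were higher, and 750 genes of 10475 had such a p in either direction. Every Green library lay below every Control library for 34 members (13.6%), beside 3.75% of genes with a mean count of 50 or more.

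ENSGALG00000027891 was measured at 253, 227, 168 and 256 CPM in Control and at 238, 359.6, 252 and 310.2 CPM in White, here and below in the order of Control replicates 4, 5, 6 and 8, White 1, 3, 6 and 7, Green 2, 7 and 9, and G3D 1, 5, 6 and 7. It stood at 139.7, 167 and 122 CPM in Green and at 152, 170.1, 146 and 134 CPM in G3D. Every Green library was below every Control library, while G3D 5 lay just above the lowest Control library. The Green log2 fold change was -0.66 with a standard error (SE) of 0.15 in edgeR, and the DESeq2 adjusted p was 0.0381.

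The comparisons that chose the members are given for reference only. edgeR called 0 genes higher in White than in Control (background 0%), with 569 genes at an unadjusted p under 0.05 in either direction, limma-voom called 0, and DESeq2 called 4 higher and 4 lower, of which 0 were members. For G3D, edgeR called 7 genes lower, 0.0668% of those tested, of which 1 was a member, ENSGALG00000001055 (adjusted p 0.0249). The number of genes called for G3D in either direction, 10, ran from 1 to 221 with a library left out, and was 221 (176 lower) without G3D 5. DESeq2 called 142 lower, 1.72% of 8255 tested, of which 32 were members (12.8%). These included GUCY1A3, GLRA2, ATP2A2, CNTN1, KIF2A, EIF4G2, EIF3E, GNB1, PRKAR1A, UBE2D3 and PDP1. All White libraries lay above all Control libraries for 15 members (6.0%, beside 3.18% of genes with a mean count of 50 or more), and all G3D libraries below all Control libraries for 38 (15.2%, beside 3.5%). The choice of members used these comparisons, so nothing is read from the counts. All Green libraries were above all G3D libraries for 7 members (2.8%, beside 1.68%), a comparison whose G3D side the choice also used.

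The members shifted together from library to library, also within a group. The median over the members minus Control was 0.33, -0.12, -0.35 and 0.13 in the 4 Control libraries, 0.14, 0.74, 0.38 and 0.57 in White, -0.42, -0.15 and -0.61 in Green and -0.79, -0.20, -0.94 and -0.49 in G3D, while the median over all 6564 genes stayed between -0.06 and 0.12. The lowest White library, replicate 1, was below Control 4, and the highest G3D and Green libraries, G3D 5 and Green 7, were above Control 6, so the groups overlap. Members above their own group's mean numbered 215, 80, 21 and 170 of 250 in Control, 30, 220, 115 and 180 in White, 112, 206 and 50 in Green and 64, 214, 46 and 158 in G3D. The choice of members does not fix this reading but can favour it, since a single high or low library can carry a gene past the limits. Chosen without White 3, 148 of the 250 members remained. Of all genes with a mean count of 50 or more, between 40.2% and 60.6% lay above their own group's mean in a library. The members' summed share of a library's counts ran from 0.503% in G3D 1 to 1.60% in White 3.

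The number of genes detected moved with the members, though not in every library. With every library thinned to 3944530 counts, genes detected numbered 12962, 12869, 12606 and 12787 in Control, 12731, 13074, 13106 and 12998 in White, 12684, 12718 and 12418 in Green and 12531, 12719, 12216 and 12400 in G3D. In each of the 4 groups the library with the lowest member median also had the fewest genes detected. With this number as a covariate in edgeR, an alternative chosen after seeing the data, the median log2 fold change of the members was 0.14 in White, -0.14 in Green and -0.21 in G3D, beside 0.36, -0.40 and -0.63 without it. Of the 250 members, 205 were then higher in White, 177 lower in Green and 201 lower in G3D. Every White library had more genes detected than every Green and every G3D library, while the Control range overlapped that of each other group. The covariate thus went partly with the treatment, and the adjusted values cannot tell them apart. Whether the number of genes detected reflects the tissue or the RNA was not tested.

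**Figure D2:**
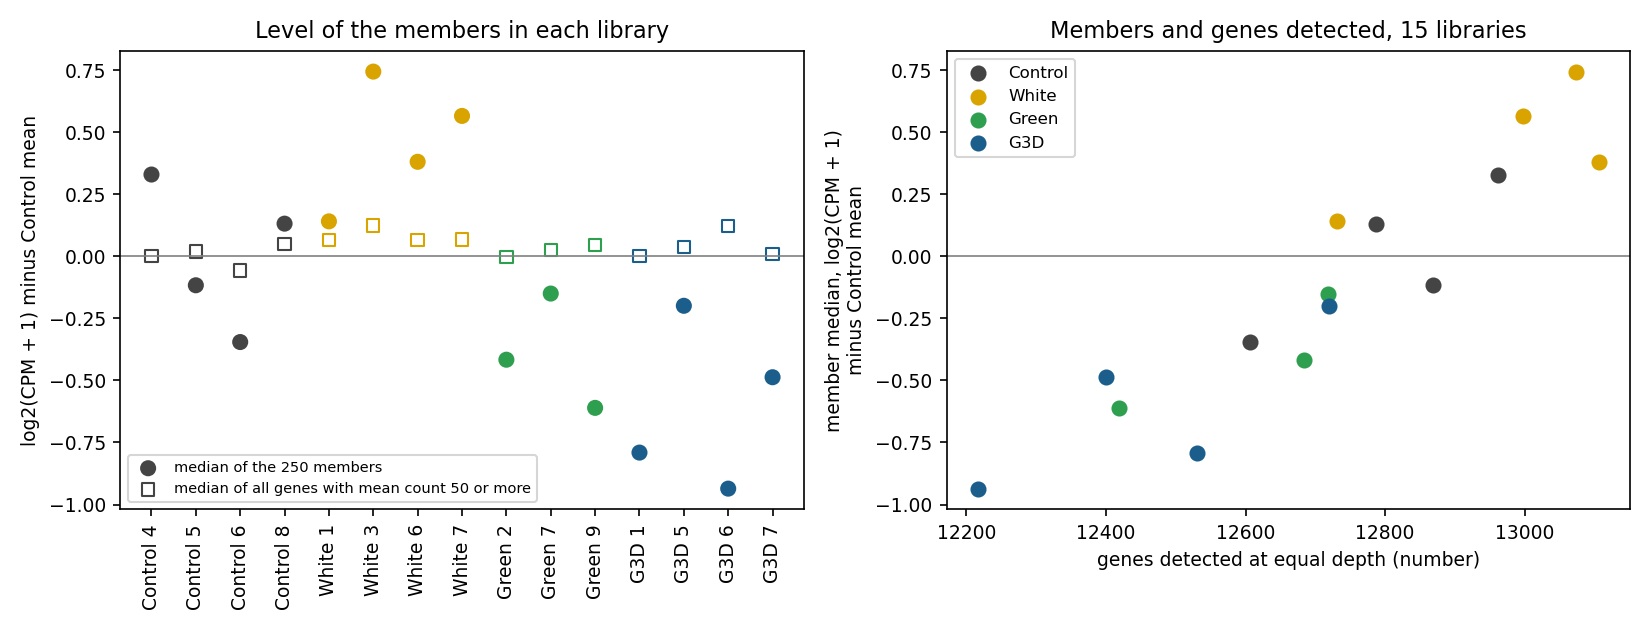
Left, median over the 250 members (filled circles) and over all 6564 genes with a mean count of 50 or more (open squares) of log2(CPM + 1) minus the Control mean in each of the 15 libraries. Right, the member median against the number of genes detected at 3944530 counts, coloured by group; G3D 6 has the lowest member median (-0.94) and the fewest genes detected (12216).

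A library that is left out of the choice gives the same measure without itself having been read by it. The Control mean that it is set against was still used in the choice, so these medians are not fully independent of it. Chosen without White 3, 154 genes had a median of 0.66 above Control in White 3, and chosen without White 7, 221 genes had 0.52 in White 7. Chosen without White 1 or White 6, the medians in those libraries were -0.03 (169 of 359 genes above the Control mean) and 0.04. The left-out G3D libraries had medians of -0.81 (replicate 1), -0.12 (5), -0.91 (6) and -0.44 (7). Left-out Control libraries also departed from the mean of the other 3: Control 4 had 0.44 (250 of 281 genes above), Control 8 had 0.25, Control 5 had -0.05 and Control 6 had -0.39 (145 of 167 genes below). Control 4 and 6 thus lay about as far from the other Control libraries as G3D 7 did from Control, and farther than G3D 5.

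Markers of cell types could be read for 6 of 71 listed genes, none of them a member. These 6 have a symbol only through the study's list of DEGs, so their differences from Control are no independent reading. The neuropeptide genes of hypothalamic neurons that could be read, SST, GAL and VIP, were detected in every library. They were higher in Green and G3D than in Control, opposite to the members. The study reports SST and VIP as raised in both green groups and GAL in G3D. In White their means were also above Control (by 0.36, 1.31 and 0.60 on the log2 scale), as those of the members were. SST was between 604 and 829 CPM in Control, 697 and 1063 in White, 948 and 1003 in Green, and 1109 and 1320 in G3D. GAL was between 6.27 and 41.6 CPM in Control, 15.3 and 157 in White, 87.7 and 102 in Green, and 102 and 127 in G3D. VIP was between 53.7 and 101 CPM in Control, 101 and 132 in White, 122 and 145 in Green, and 105 and 117 in G3D. For these 3 genes every Green and every G3D value exceeded every Control value. The neuronal gene SNAP25 was between 656 and 884 CPM in Control, 657 and 1270 in White, 634 and 754 in Green, and 478.5 and 826 in G3D. STMN2, also neuronal, was between 1616 and 2425 CPM in Control, 1951 and 2909 in White, 2038 and 2719.5 in Green, and 2157 and 3377 in G3D. The neuronal genes went different ways on the log2 scale. SNAP25 differed from Control in the members' directions, by 0.19 in White, -0.18 in Green and -0.41 in G3D. STMN2 was higher in all 3, by 0.20, 0.27 and 0.36. The connective tissue gene COL1A2 was between 27.0 and 40.5 CPM in Control, 30.5 and 36.4 in White, 35.8 and 61.2 in Green, and 50.8 and 90 in G3D, with the 4 G3D values above all 4 Control values. Markers of glia, endothelium, blood, pituitary and choroid plexus were not analysed here, and the part of cell composition in the members' levels was not tested. In whole tissue, fewer cells of a type and less RNA per cell cannot be told apart.

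Soluble guanylate cyclase is the receptor for nitric oxide and makes cyclic GMP from GTP. Of 18 listed genes of the nitric oxide and cyclic GMP pathway, 2 are named in the study's list of DEGs. Both are members: GUCY1A3 and GUCY1B3, the alpha and beta subunits of this enzyme. GUCY1A3 was measured at 23.6, 11.3, 13.8 and 24.1 CPM in Control, 17.4, 33.9, 20.5 and 22.3 in White, 11, 12.5 and 7.80 in Green and 7.69, 12.9, 4.53 and 7.63 in G3D. White 3 alone exceeded every Control library, and 2 of 3 Green and 3 of 4 G3D libraries were below all of them. GUCY1B3 was measured at 36.9, 25.5, 18 and 24.9 CPM in Control, 31.6, 51.5, 21.8 and 48.5 in White, 17.9, 26.7 and 14.7 in Green and 11, 30.2, 10.7 and 16.9 in G3D. Here White 3 and 7 were the high libraries, and G3D 5 and Green 7 lay within the Control range. The Green log2 fold change was -0.79 (SE 0.33, edgeR adjusted p 0.658) for the alpha and -0.41 (SE 0.36, edgeR adjusted p 0.817) for the beta subunit, so neither passed the test, and the beta value turned to 0.0034 with genes detected as a covariate.

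Of 21 listed calcium genes, 3 are named in the study's list of DEGs. All 3 are members, a share that is not read as a result. ATP2B2, a pump that moves calcium out across the plasma membrane of neurons, was measured at 106, 92.7, 94.4 and 84.7 CPM in Control, 73.4, 229, 114 and 145 in White, 72.5, 93.2 and 63.1 in Green and 38.3, 60, 40 and 83.2 in G3D. Its 4 G3D libraries were below all Control libraries, and White 1 was below them too, against the other 3 White libraries. ATP2A2, the SERCA2 pump that fills the calcium store of the endoplasmic reticulum, was measured at 49.3, 38.5, 30.8 and 35.8 CPM in Control, 50.2, 71.5, 44.9 and 61.3 in White, 27.9, 40.3 and 22.9 in Green and 15.2, 29.3, 20.7 and 26.8 in G3D. White 1, 3 and 7 were above every Control library and all G3D libraries below, with Green 7 inside the Control range. CHP1, a calcium-binding partner of sodium-proton exchangers and of calcineurin, had group means of 50.5 CPM in Control, 62.7 in White, 42.2 in Green and 31.1 in G3D. Their Green log2 fold changes were -0.32, -0.35 and -0.25, with edgeR adjusted p-values of 0.837, 0.745 and 0.798.

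Of 25 genes listed for inhibitory transmission, 3 are named in the study's list and 2 are members. GAD67 (GAD1), which makes GABA from glutamate, was measured at 126, 99.9, 102 and 140.0 CPM in Control, 116, 211, 131 and 150.4 in White, 69.6, 88.6 and 83.7 in Green and 58.4, 118, 53.6 and 90 in G3D. All 3 Green libraries were below all 4 Control libraries, whereas G3D 5 lay within them. GLRA2, an alpha subunit of the inhibitory glycine receptor, was measured at 36.7, 34.6, 22.4 and 33.2 CPM in Control, 26.5, 60.2, 45.9 and 51.1 in White, 19.1, 28.6 and 12.7 in Green and 11.3, 16, 11.4 and 21 in G3D. For this gene the G3D libraries were all below Control, 3 White libraries were above it, and Green 7 lay within it. The edgeR log2 fold change in Green was -0.54 (SE 0.24, adjusted p 0.664) for GAD67 and -0.65 (SE 0.29, adjusted p 0.662) for GLRA2. GAD2, the second GABA-making enzyme, missed the White limit: its mean log2(CPM + 1) differed from Control by 0.08 in White, -0.48 in Green and -0.86 in G3D.

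**Figure D3:**
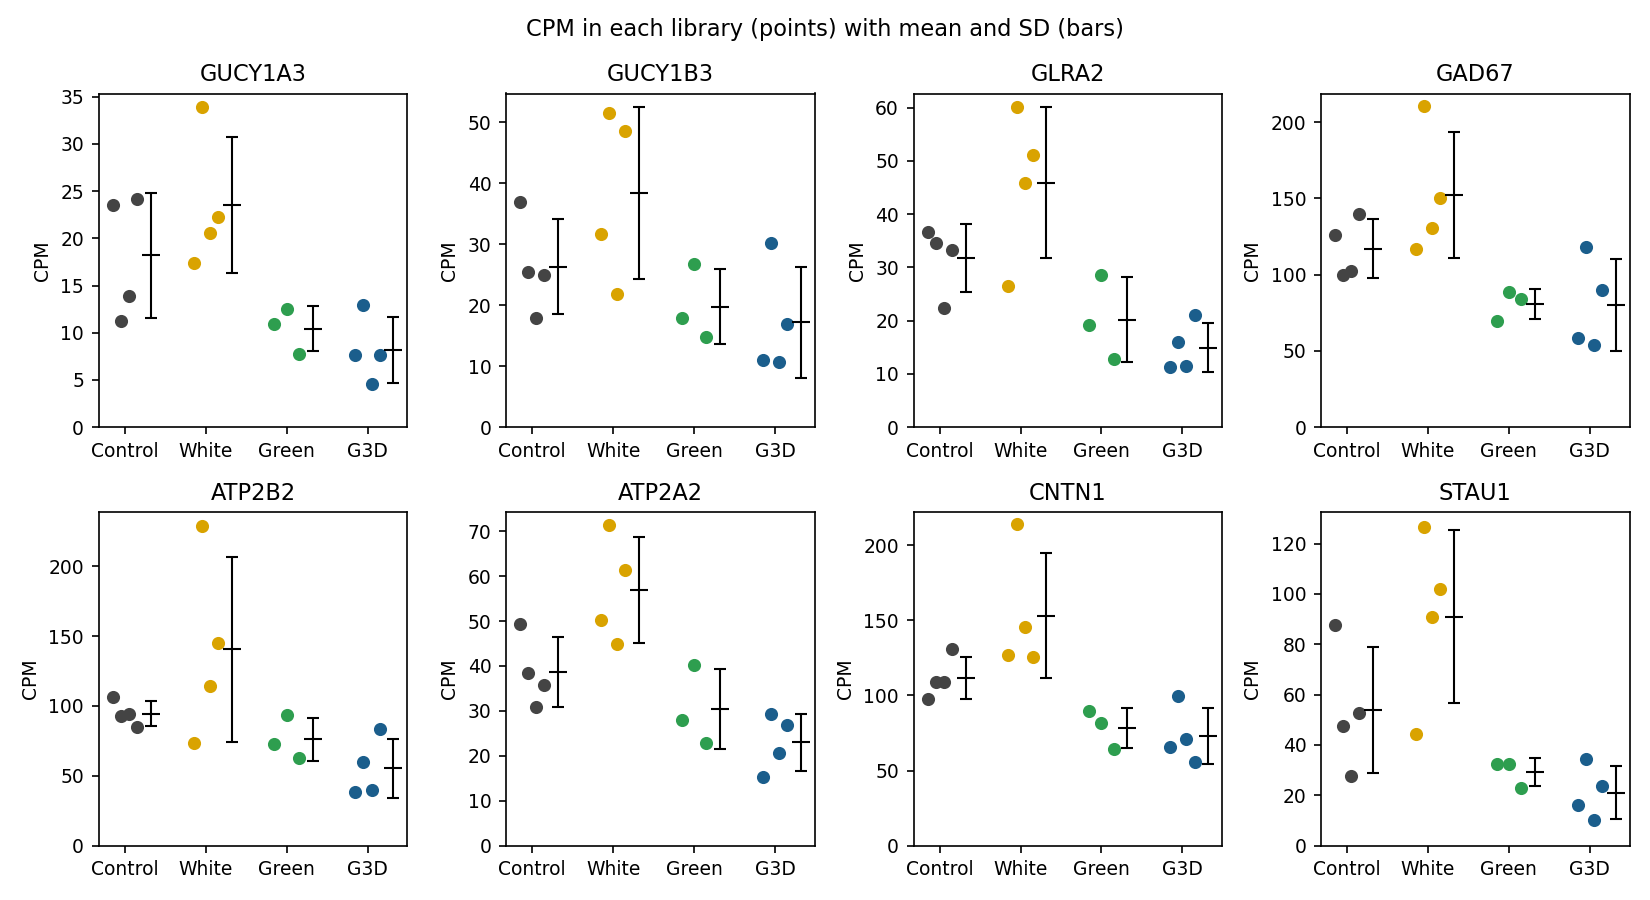
CPM of 8 members in each library (points, coloured by group) with the group mean and SD (horizontal tick and bar); n is 4 Control, 4 White, 3 Green and 4 G3D libraries, and each axis starts at 0. For GAD67 and CNTN1 the 3 Green points lie below all Control points, and for GLRA2, ATP2B2 and ATP2A2 the 4 G3D points do.

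Of 23 genes listed for G proteins and kinases, 10 are named in the study's list and 5 are members. GNB1, a beta subunit of heterotrimeric G proteins, was measured at 279, 189.5, 174 and 238 CPM in Control, 246, 389.5, 234 and 279.9 in White, 153, 183 and 131 in Green and 103, 166, 82 and 149 in G3D. Its G3D libraries were all below Control, and Green 7 was above the lowest Control library. RAP1GDS1, which promotes nucleotide exchange on small GTPases, was measured at 102, 69.6, 31 and 77.8 CPM in Control, 69.4, 117, 105 and 119 in White, 37.2, 62.5 and 28.7 in Green and 28.2, 45.6, 17.4 and 33.9 in G3D. Control 6 was low for this gene and lay among the G3D libraries. PRKAR1A, a regulatory subunit of protein kinase A, had means of 90.8 CPM in Control, 112 in White, 80.3 in Green and 67.7 in G3D. Every G3D library was below every Control library. G3D 5 (72.2 CPM) and Green 2 (72.4 CPM) were nearly equal, and the other G3D libraries were below every Green library. RASGEF1A, an exchange factor for Ras-family GTPases, and RASD2, a Ras-like GTPase of the brain, were lower in level, at Control means of 11.5 and 11.5 CPM. Among the 5 that are no members, GNG2 (0.40), GNAI2 (0.33) and RASD1 (0.76) were higher in G3D than in Control on the log2 scale, while the kinases SGK1 (-0.78) and SGK3 (-0.83) were lower and missed the White limit at 0.29 each.

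Of 22 genes listed for adhesion, axon growth and the cytoskeleton, 11 are named in the study's list and 9 are members. CNTN1 (contactin 1), an adhesion molecule of axons, was measured at 97.3, 109, 109 and 131 CPM in Control, 127, 214, 146 and 126 in White, 89.9, 81.4 and 64.1 in Green and 65.7, 99.4, 71.3 and 55.6 in G3D. Every Green library was below every Control library, and among G3D libraries only replicate 5 reached the Control range. CHN1 (chimerin 1), a Rac-inactivating protein that acts in axon guidance, was measured at 305, 219, 145 and 199 CPM in Control, 262, 342, 308 and 273 in White, 179, 151 and 106 in Green and 121, 182, 127 and 153 in G3D. Green 9, G3D 1 and G3D 6 were below every Control library, and White 3 and 6 above. PTN (pleiotrophin), a secreted factor that promotes neurite outgrowth, was measured at 222, 175, 169 and 312 CPM in Control, 212, 368, 231 and 264 in White, 167, 179 and 165 in Green and 139.7, 204, 168 and 157 in G3D. Its White libraries overlapped Control except for White 3. CBLN2, a secreted synapse organizer of the cerebellin family, was measured at 112, 82.4, 55.2 and 96.3 CPM in Control, 91.4, 118, 113 and 124 in White, 47.5, 91 and 53.7 in Green and 48.1, 83.2, 47.4 and 30.9 in G3D. White 3, 6 and 7 were above all Control libraries, and Green 7 and G3D 5 stayed within them. KIF2A, a kinesin that takes microtubules apart and limits axon branching, was measured at 87.3, 44.7, 37.6 and 56.5 CPM in Control, 38.8, 103, 107 and 87.8 in White, 34.9, 39.6 and 21.2 in Green and 17.4, 29, 12.2 and 27.7 in G3D. G3D lay below Control in each library, and White 1 was near the lowest Control library. Other members of this list were ARVCF, a catenin of cell junctions, PTPRG, a receptor tyrosine phosphatase, and SNN (stannin). Over the 9 genes the Green log2 fold change in edgeR lay between -0.82 in KIF2A and -0.36 in PTN, with adjusted p-values of 0.609 or more. NCAM1, a neural adhesion molecule, was 0.29 higher in G3D than in Control, and PCDH9, a protocadherin with differences of 0.85 and -1.31, was under the mean count of 50.

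Clathrin coats and the AP-2 adaptor recover membrane and receptors from the cell surface. Of 21 genes listed for this process, 7 are named in the study's list and 3 are members. CLTC, the clathrin heavy chain, was measured at 186, 171, 123 and 139.6 CPM in Control, 128, 253, 197 and 211 in White, 140.4, 126 and 102 in Green and 88.4, 80.6, 118 and 125 in G3D. White 1 lay within Control and the other 3 White libraries above it, and G3D 7 alone of the G3D libraries reached the Control range. EPS15, an endocytic scaffold that binds AP-2, was measured at 55.7, 46.4, 51.8 and 69.8 CPM in Control, 53.2, 112, 53.7 and 77.5 in White, 42, 37.8 and 37.1 in Green and 21.5, 52.5, 22.4 and 31.4 in G3D. The Green libraries were close together and all below Control, while G3D 5 was well above the other G3D libraries. AP2A2, the large alpha 2 subunit of AP-2, was measured at 41.3, 14.9, 13 and 24.1 CPM in Control, 15.8, 56.9, 34 and 39.7 in White, 9.38, 16.5 and 7.80 in Green and 7.41, 19.2, 8.10 and 6.70 in G3D. Green 7 and G3D 5 lay within the Control range and the rest of both groups below it. The other listed genes that could be read did not share the pattern. From Control to G3D the light chain CLTB (0.32), the AP-2 mu subunit AP2M1 (0.35) and SH3GL1 (0.30) were higher on the log2 scale. The light chain CLTA (-0.37) was lower, with -0.17 in White.

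Of 21 genes listed for other membrane traffic, 9 are named in the study's list and 6 are members. TMED2, a cargo receptor between endoplasmic reticulum and Golgi, was measured at 88.5, 76.4, 58.8 and 99.4 CPM in Control, 93.9, 113, 90.5 and 122 in White, 56.8, 71.2 and 58 in Green and 51.7, 86.9, 61.5 and 45.8 in G3D. White 3 and 7 exceeded every Control library, and G3D 5 and 6 lay within Control. SACM1L, the SAC1 phosphatase that removes phosphate from phosphatidylinositol 4-phosphate, was measured at 20.7, 3.79, 4.78 and 8.62 CPM in Control, 9.89, 18.1, 17.5 and 21.2 in White, 3.78, 4.63 and 3.56 in Green and 2.71, 3.26, 1.43 and 2.60 in G3D. Control 4 was as high as the White libraries, and G3D was lowest, with every G3D library below every Green and every Control library. SNX25, a sorting nexin, RAB21, an endosomal GTPase, NAPG, the gamma SNAP that helps recycle SNARE complexes, and TMEM106B, a lysosomal membrane protein, completed the list. Green log2 fold changes in edgeR ran from -1.25 (SACM1L, adjusted p 0.609) to -0.35 (RAB21, adjusted p 0.733). COPB2, a coat protein of Golgi vesicles, differed from Control by 0.04 in White, -0.84 in Green and -0.87 in G3D.

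In the endoplasmic reticulum, oligosaccharyltransferase attaches glycans to new proteins. RPN2 (ribophorin II), a subunit of it, was measured at 102, 71.7, 52.9 and 57.9 CPM in Control, 70.4, 109, 106 and 103 in White, 65.7, 61.4 and 41.7 in Green and 32, 54.5, 33.4 and 59.9 in G3D. White 1 lay far below the other White libraries and within Control. PIGG, an enzyme of GPI-anchor synthesis, was measured at 20.5, 12.6, 6.26 and 11.9 CPM in Control, 8.50, 27.2, 21.3 and 22.2 in White, 9.51, 7.62 and 2.37 in Green and 0.997, 4.14, 2.38 and 5.95 in G3D. It had the third-lowest Green difference among named members (-0.94), carried by Green 9, and all its G3D libraries were below Control. Of the 16 genes listed here, 4 are named in the study's list. A gene that the study lists as cFuc-TIX, by its name a fucosyltransferase, was the only other member. The remaining gene, MAGT1, an oligosaccharyltransferase subunit and magnesium transporter, was at -0.02 in White and -0.84 in G3D.

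Of 30 genes listed for translation, 7 are named in the study's list and 6 are members. EIF4G2 (DAP5), a scaffold for cap-independent initiation, was measured at 111, 48.2, 61 and 86.9 CPM in Control, 64.7, 171, 96.3 and 127 in White, 45.1, 46.4 and 30.2 in Green and 32.5, 50.6, 19.5 and 31.3 in G3D. All Green libraries were below all Control libraries, and G3D 5 lay just above Control 5. STAU1 (Staufen 1), which carries mRNA along dendrites, was measured at 87.6, 47.5, 27.9 and 52.7 CPM in Control, 44.5, 127, 90.8 and 102 in White, 32.4, 32.5 and 23.1 in Green and 16.2, 34.5, 10 and 23.6 in G3D. White 1 again lay within Control, and Green 2 and 7 stayed above the low Control 6. EIF3E, a subunit of the initiation factor eIF3, was measured at 38.9, 16.9, 17 and 24.8 CPM in Control, 16, 38.5, 43.6 and 39.4 in White, 19.1, 12.4 and 10.7 in Green and 6.84, 10.2, 7.63 and 16.9 in G3D. White 1 was below every Control library, and so were the G3D libraries, G3D 7 by a narrow margin. RPS7, a protein of the small ribosomal subunit, was measured at 43.8, 25.8, 14.2 and 14.4 CPM in Control, 12.9, 42.6, 45.9 and 45.6 in White, 20.4, 7.35 and 1.19 in Green and 1.14, 0.877, 1.91 and 10.8 in G3D. It had the lowest Green difference among named members (-1.66) and the widest spread of them within Green relative to its mean, from 1.19 to 20.4 CPM. Ribosomal protein genes can have near-identical copies, and how reads of such copies were counted is not given in the sources used here. In edgeR the Green log2 fold change of RPS7 was -1.32 (SE 0.88, adjusted p 0.748) and that of EIF4G2 -0.92 (SE 0.36, adjusted p 0.645). BTF3L4, a relative of the nascent-chain factor BTF3, was a further member, and EIF3G, the subunit that is no member, was 0.33 higher in G3D than in Control.

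Of 20 listed RNA processing genes, 8 are named in the study's list of DEGs. All 8 are members, a share that is not read as a result. NOVA1, a neuronal regulator of splicing, was measured at 122, 74.3, 48.8 and 70.4 CPM in Control, 67.8, 175, 149 and 139 in White, 48.7, 57.7 and 32.9 in Green and 34.9, 65.4, 46.9 and 46 in G3D. White 3, 6 and 7 exceeded all Control libraries, and G3D 5 and Green 7 were inside the Control range. DCAF13, a factor of small-subunit ribosome assembly, was measured at 45.9, 28.7, 22.6 and 40.9 CPM in Control, 33.4, 80.4, 48.7 and 69.7 in White, 33.6, 30.1 and 18.3 in Green and 15.2, 24.6, 17.6 and 27.2 in G3D. Green 9, G3D 1 and G3D 6 lay below the Control range, and Green 2 and 7 within it. The others were DDX1, an RNA helicase, DBR1, the lariat debranching enzyme, PPP1R8 (NIPP1), a nuclear inhibitor of protein phosphatase 1, GPATCH1, a spliceosome-associated protein, ZC3H7A, a zinc finger protein, and ELAVL2 (HuB), a neuronal RNA-binding protein. Their Green log2 fold changes in edgeR lay between -0.88 (DDX1, adjusted p 0.676) and -0.13 (GPATCH1, adjusted p 0.952).

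Of 13 genes listed for lipid metabolism and peroxisomes, 8 are named in the study's list and 3 are members. SCCPDH, a saccharopine dehydrogenase-like protein, was measured at 133, 99, 113 and 125 CPM in Control, 109, 193, 121 and 183 in White, 92, 103 and 42.4 in Green and 37.5, 78.5, 45.5 and 86.7 in G3D. Its G3D libraries were all below Control, and White 1 and 6 lay within Control. HSD17B4, the D-bifunctional enzyme of peroxisomal beta-oxidation, was measured at 70.8, 36.1, 39.2 and 52.1 CPM in Control, 56, 79.6, 64.6 and 82.9 in White, 34.7, 49.5 and 29.8 in Green and 26.5, 43.7, 24.3 and 23.4 in G3D. Control 4 was within the White range, and Green 7 and G3D 5 within the Control range. HACD3, a dehydratase of very long-chain fatty acid elongation, had a Green log2 fold change of -0.76 (SE 0.42, edgeR adjusted p 0.704). Genes of this list that are no members were also lower in G3D than in Control, by mean differences of -1.37 for HACD2, -1.28 for HACL1, -0.94 for ABCD3 and -0.61 for CYP46A1. HACD2 and ABCD3 missed the White limit (0.25 and 0.24), and HACL1, with 0.68 in White, had a mean count of 48.6.

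Of 13 listed mitochondrial genes, 4 are named in the study's list of DEGs. All 4 are members, a share that is not read as a result. PDP1, which switches pyruvate dehydrogenase on, was measured at 18.5, 12, 7.91 and 14.9 CPM in Control, 19.6, 26.7, 19 and 22.9 in White, 5.0, 9.80 and 6.44 in Green and 5.70, 8.40, 5.96 and 8.56 in G3D. All its White libraries were above all Control libraries, and Green 7 and G3D 5 and 7 were above Control 6 alone. SLC25A12, the aspartate-glutamate carrier of neurons, was measured at 156, 114, 77.1 and 119 CPM in Control, 129.9, 196, 132 and 143 in White, 112, 105 and 65.1 in Green and 45.1, 62.7, 89.1 and 91.7 in G3D. White 3 was the only White library above all Control libraries, and Green 2 and 7 lay within Control. In edgeR, PDP1 had a Green log2 fold change of -0.92 (SE 0.29, adjusted p 0.514), and SLC25A36, a carrier of pyrimidine nucleotides, one of -0.89 (SE 0.29, adjusted p 0.514). For SLC25A36 the Green and G3D libraries were all below, and the White libraries all above, the Control libraries. MFF, the fission factor that recruits the dynamin-like protein to mitochondria, had means of 51.7 CPM in Control, 64.6 in White, 40 in Green and 38.8 in G3D.

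For ubiquitin and the proteasome, 11 of 23 listed genes are named in the study's list and 7 are members. UBE2D3, a ubiquitin-conjugating enzyme of broad use, was measured at 103, 76.8, 73.8 and 72.3 CPM in Control, 80.3, 121, 111 and 108 in White, 58.4, 63.4 and 48.7 in Green and 46.4, 66.8, 37.4 and 51.2 in G3D. Neither Green nor G3D reached the Control range in any library, and Control 4 was well above the other Control libraries. The Green log2 fold change was -0.53 (SE 0.19, edgeR adjusted p 0.609). KLHL7, an adaptor of cullin 3 ubiquitin ligases, was measured at 20.4, 11.7, 7.58 and 10.5 CPM in Control, 10.1, 21.5, 25.1 and 27.4 in White, 9.14, 8.57 and 6.78 in Green and 3.99, 10.3, 2.86 and 6.88 in G3D. White 1 lay within Control and below G3D 5. RAD23B, a shuttle that brings ubiquitin-tagged proteins to the proteasome, had a White mean of 22.3 ± 9.98 CPM (SD, n = 4) beside 10.5 ± 1.07 in Control (SD, n = 4). White 6, at 10.6 CPM, lay within the Control range. All its Green libraries were below Control by a narrow margin, with 8.99 CPM in Green 9 beside 9.07 in Control 6. The rest were FBXL5, an iron-sensing F-box protein, HECW1 and WSB1, parts of ubiquitin ligases, and POMP. UBE2D1 and UBE2D2, relatives of UBE2D3, were 0.05 and 0.14 from Control in White and -0.38 and -0.51 in G3D.

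NCOA4, a coactivator of nuclear receptors and the receptor that delivers ferritin for degradation, was measured at 47.3, 30.5, 26.2 and 36.2 CPM in Control, 36.4, 75.5, 34.7 and 55.1 in White, 21.9, 25.4 and 13.6 in Green and 17.4, 41.7, 11.4 and 21.8 in G3D. All Green libraries were below all Control libraries, and G3D 5 was within Control. IFNAR1, a subunit of the type I interferon receptor, was measured at 16.5, 12, 7.91 and 14.9 CPM in Control, 10.5, 19, 19.8 and 21.4 in White, 7.92, 3.13 and 2.03 in Green and 3.13, 3.51, 6.20 and 7.63 in G3D. Green 2 lay at the level of the lowest Control library, the other Green libraries were far below it, and all G3D libraries were below Control. With -1.52 (SE 0.41) it had the lowest Green log2 fold change of the named members in edgeR, at an adjusted p of 0.368. Of 8 genes listed for nuclear receptors and interferon, the study's list names these 2. It names 0 of 12 listed immediate early genes, so their levels could not be looked up.

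Named members outside these lists included CD47, CCNG1, SBNO1, DNAJC12, KAT14, AGT, FAM49A, C12orf49, ST13, SESTD1 and TMEM55A. CD47, a membrane protein that protects cells from phagocytosis, had means of 47.9 ± 17.7 CPM in Control, 63.2 ± 22.5 in White, 27.3 ± 8.23 in Green and 18.4 ± 7.20 in G3D (SD, n = 4, 4, 3 and 4). AGT, which encodes angiotensinogen and is made in the brain by astrocytes, had means of 118 ± 32.9 CPM in Control, 146 ± 36.1 in White, 98.4 ± 15.5 in Green and 69.7 ± 30.8 in G3D. Its Green mean lay nearer to Control than to G3D. DNAJC12 and ST13, cochaperones of the heat shock protein Hsp70, had Green log2 fold changes of -0.72 (SE 0.31) and -0.49 (SE 0.26) at edgeR adjusted p-values of 0.662 and 0.704. TMEM55A, a phosphatase of phosphatidylinositol 4,5-bisphosphate, had the highest Green minus Control difference of the named members (0.02), and GPATCH1 (-0.10) was also among the highest.

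**Figure D4:**
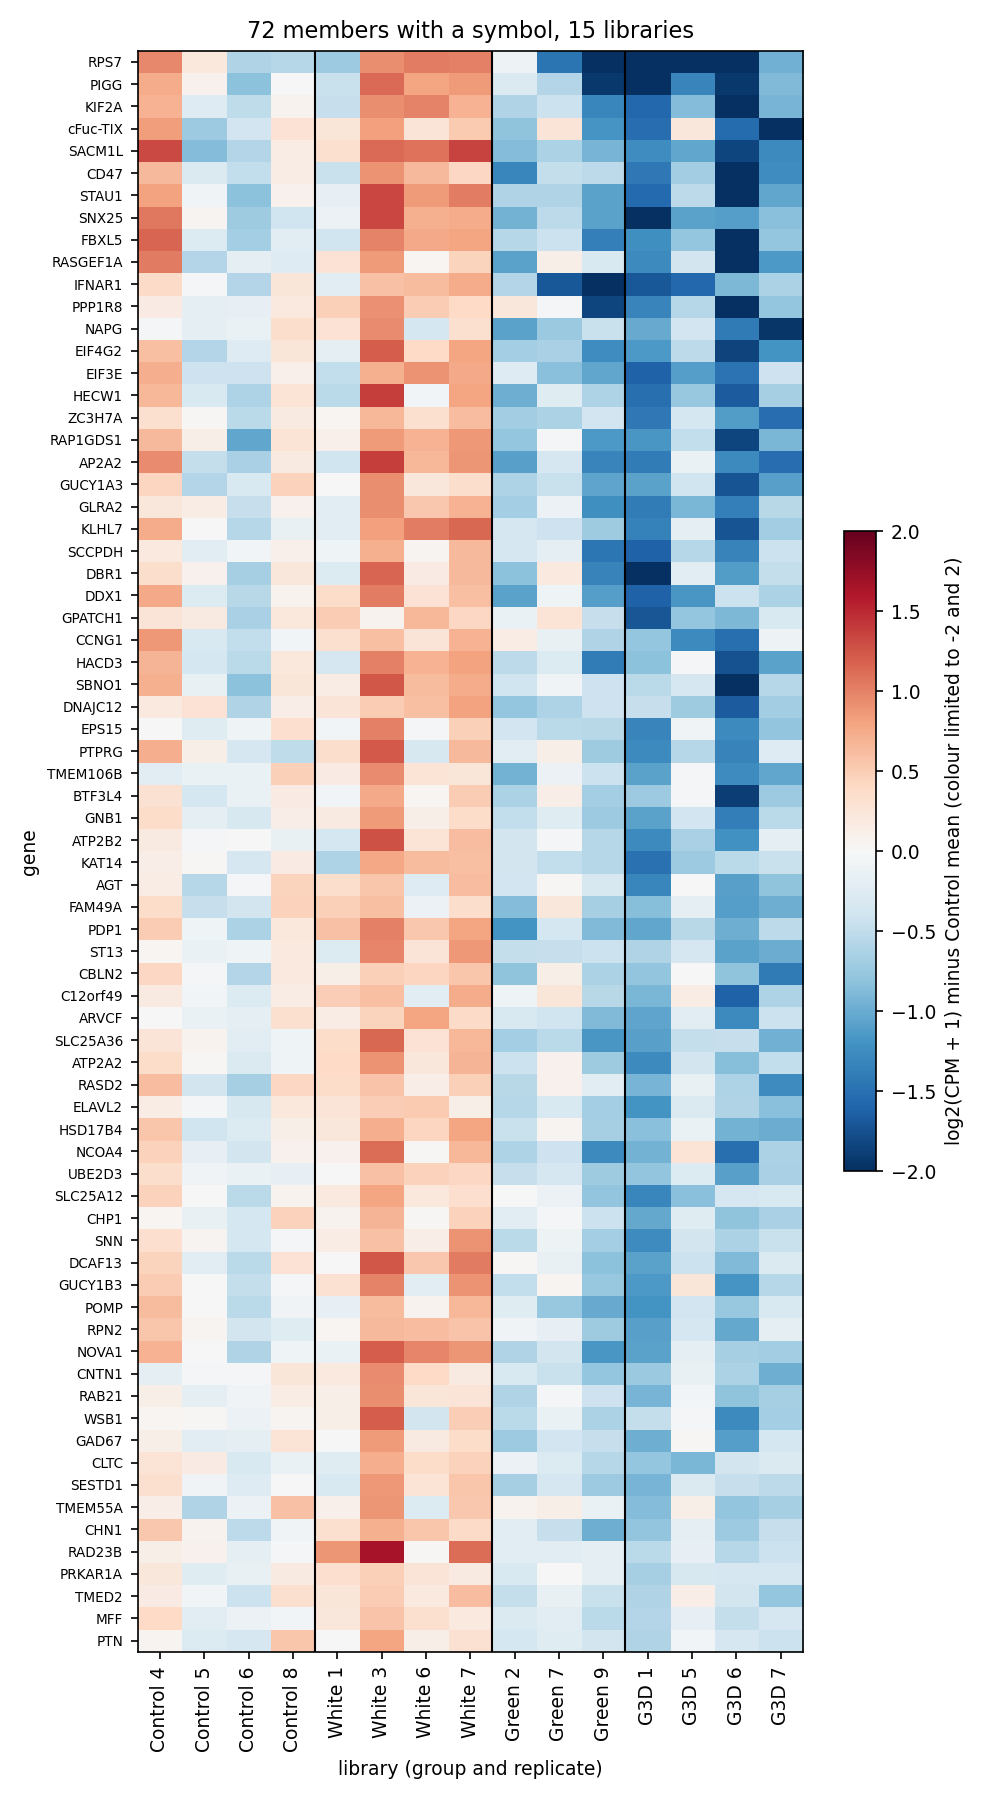
Level of 72 members with a symbol in each of the 15 libraries, as log2(CPM + 1) minus the Control mean of the gene, with colours limited to -2 and 2 and genes ordered by their G3D mean from lowest to highest. Columns stand out as a whole: Control 4 is high and Control 6 low among Control libraries, White 1 is close to Control, White 3 is the highest, and G3D 5 and Green 7 are the palest of their groups.

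Across the 75 named members the adjusted p for Green in edgeR lay between 0.368 and 0.988. Since they have a symbol only through the study's list of DEGs, chosen on these samples, their number at an unadjusted p is not read against all genes. Their Green libraries were all below Control for ARVCF, CNTN1, EIF4G2, EPS15, GAD67, KAT14, NAPG, NCOA4, RAD23B, SESTD1, SLC25A36, ST13, UBE2D3 and WSB1. Such a separation held for 3.75% of genes with a mean count of 50 or more, and the list is not read as a result. PDP1, PPP1R8 and SLC25A36 were among the named members with all White libraries above all Control libraries.

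The 175 members without a symbol included the most abundant and the most variable. ENSGALG00000006474 had the highest mean count of all members, 2990. The lowest Green minus Control difference of any member, -2.01, belonged to ENSGALG00000010243, with 35.7, 139 and 19.8 CPM in Green against 305, 195, 168 and 132 CPM in Control. Its highest Green library overlapped Control. The largest White differences, 2.11 and 2.08, belonged to ENSGALG00000015143 and ENSGALG00000012908. ENSGALG00000015143 stood at 1.38, 30.5, 101 and 4.33 CPM in White and 2.01, 2.21, 2.97 and 2.04 CPM in Control, with White 3 and 6 far above every other library. ENSGALG00000012908 was alike, with 0.791, 23.6, 151 and 6.68 CPM in White and 2.11, 1.89, 5.60 and 1.72 CPM in Control, and it was the only member with a count of 0 in a library, Green 2.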

How the data were processed

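Bulk MARS-Seq was run on hypothalamic RNA of 15 newly hatched Ross 308 chicks. The authors trimmed reads with Cutadapt, mapped them with STAR to the 3′ ends of chicken genes (GRCg6a), marked duplicates by gene and molecular identifier and counted reads with HTSeq. The table deposited by the authors holds raw counts of 24356 Ensembl genes, not normalized, and 0 columns were left unmapped. Depth was between 3944530 and 9501555 counts per library, and with p-values over libraries of separate chicks the spread includes technical variation. No batch, trial or litter is given.

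Samples were grouped by the treatment in their labels. In R 4.3.3, edgeR 4.0.16 was applied to the counts: filterByExpr (10475 genes), TMM, a quasi-likelihood fit with robust shrinkage on all 15 libraries (common biological coefficient of variation 0.258) and Benjamini-Hochberg adjustment with a threshold of 0.05. CPM and the member rule used column totals and a pseudocount of 1. The code was tested on simulated data. DESeq2 1.42.0, limma-voom (limma 3.58.1), other scalings and filters, a replicate block and leaving out each library were the alternatives.

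The members and the lists were chosen with earlier results of these data known. Symbols came from the study's table of 728 identifiers, 568 of them with a symbol, whose fold changes and p-values were not used. In a RefSeq table of another assembly 72 of the 75 member symbols were found. Named were members in a role list, with values per library for up to 4 per list of highest mean count, then the members with the largest smaller difference and the lowest and highest Green difference, 34 genes with all values. Members without a symbol were picked by extreme values. Some named genes are not reported here.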

Additional observations from a re-analysis of the deposited data

Results flagged for a closer look

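In groups of 4 libraries, a library was singled out where its gap to the nearest of the others exceeded Dixon's critical share of the group's range. Chance alone singles out about 1 in 20 independent groups, and 6 of the 111 groups examined were singled out. The 111 groups share the same libraries, in which the members shift together, so these rates do not make a test. RPS7 had a White replicate 1 at 12.9 CPM beside 42.6 to 45.9 in the other White libraries, and a G3D replicate 7 at 10.8 CPM beside 0.877 to 1.91. RPN2 had White replicate 1 at 70.4 CPM, where the others had 102.7 to 108.7. G3D replicate 5 was high for AP2A2 (19.2 CPM, others 6.70 to 8.10) and for HSD17B4 (43.7 CPM, others 23.4 to 26.5). UBE2D3 was at 103.2 CPM in Control replicate 4 and at 72.3 to 76.8 in the other Control libraries.

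The members' median minus Control was positive in every White library, with 0.14 as the lowest, and negative in every G3D library, from -0.94 to -0.20. The choice of members fixes the direction of the group means, though not of each library, and the difference was not tested. Genes chosen without White 1 had a median of -0.03 in White 1.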

How the results depend on the processing

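The number of members was 152 with TMM and 160 with DESeq2's size factors, 412 and 158 with a mean count of at least 20 or 100, 519 and 118 with differences of 0.2 or 0.4, and between 154 (without White 3) and 364 (without White 6) with a library left out. For Green, 22 genes were called with DESeq2, 3 with all genes that have a count, 1 with only the 2 groups compared, and 0 to 1 with a library left out (1 without Green 7). For White the counts were 8 with DESeq2, 1 with all genes and 0 to 1 with a library left out. For G3D, 10 genes in edgeR became 224 with DESeq2, 4 with limma-voom, 30 with all genes, 1 with genes detected as a covariate, and 1 to 221 with a library left out (221 without G3D 5, 176 of them lower). Of the members, DESeq2 called 1 for Green, among the 22 genes it called, and 0 were called with any library left out. At an unadjusted p under 0.05 in edgeR, 49 members (19.6%) were lower, beside 3.58% of all genes tested. All Green libraries lay below all Control libraries for 34 members (13.6%), beside 3.75% of genes with a mean count of 50 or more. The members' Green median of -0.40 was between -0.59 and -0.27 with a library left out and -0.14 with genes detected as a covariate. The cause of these moves was not tested.

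Replicate numbers did not pair the libraries: same-numbered libraries had correlations of -0.10 to 0.12 between their deviations, and Green shares no number with Control. With the number as a block, 4 genes were called for White and 3 for G3D, and the Green median of the members was 0.0039, with 125 lower. Green 2 and Green 9 share their number with no other library, so under this block the Green value rested on Green 7 alone. Green 7 was tied to the other groups only through White 7 and G3D 7, and had the highest member median in Green (-0.15). The block therefore cannot decide whether a Green difference reverses, for the median or for a gene. Under this block the Green value turned positive for CBLN2 (0.96), AP2A2 (0.61), HSD17B4 (0.47), GPATCH1 (0.38), RAP1GDS1 (0.36), TMEM55A (0.31), TMED2 (0.30), NOVA1 (0.13), PTN (0.077), GUCY1B3 (0.067), ATP2A2 (0.022) and GUCY1A3 (0.013). With genes detected as a covariate it turned positive for TMEM55A (0.16), KLHL7 (0.042), DCAF13 (0.014), GUCY1B3 (0.0034) and GPATCH1 (0.0014), and in limma-voom for TMEM55A (0.049). With a library left out, GPATCH1 ran from -0.36 to 0.050 and TMEM55A from -0.21 to 0.17. Of the 36 genes tried, none passed the threshold under an alternative, and the smallest adjusted p was 0.073 (IFNAR1, DESeq2).

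With 3 or 4 libraries per group, a member near 10 CPM rests on few counts in the shallowest library.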
